A study of Mus musculus with 24 samples.

Results

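The mouse genes for serine/arginine-rich (SR) splicing factors, heterogeneous nuclear ribonucleoproteins (hnRNPs) and numbered RNA-binding-motif (RBM) proteins were examined for N6-methyladenosine (m6A) in oocytes and preimplantation embryos. They were chosen by symbol: protein-coding genes of the mm10 build whose symbol starts with Srsf or Rbm and a digit, or with Hnrnp. Hnrnpc, Hnrnpa2b1, Rbm15 and Rbm15b, which belong to the m6A reading and writing machinery itself, were left out. This gave 66 of 21887 protein-coding genes, with 11 SR, 19 hnRNP and 36 RBM genes. The rule uses symbols and no measured value, but it was set with earlier results of these data known.

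SR proteins bind exonic enhancers and recruit the spliceosome, and hnRNPs coat nascent RNA, often repress nearby splice sites, and also act in RNA export, stability and translation. RBM genes share an RNA-recognition motif and are a mixed set, with splicing regulators, exon junction and nuclear decay factors, and proteins of the nucleolus. m6A is written on messenger RNA as it is transcribed and is read by proteins that set its decay, translation and splicing. A growing oocyte stores its RNA and then stops transcription, and most of that maternal RNA is degraded around the 2-cell stage, when the embryonic genome is switched on.

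m6A-bearing RNA fragments of C57BL/6N mice were immunoprecipitated and sequenced by picoMeRIP-seq, a low-input method, at 6 stages with 2 biological replicates each. Germinal vesicle (GV) oocytes, of the type whose chromatin surrounds the nucleolus, were taken 48 h after gonadotropin from 8-week-old females, and metaphase II (MII) oocytes 14 h after chorionic gonadotropin (hCG). Embryos of 8-week-old parents were flushed after hCG: zygotes at 27 to 28 h, 2-cell embryos at 39 to 43 h, 8-cell embryos at 68 to 70 h and blastocysts at 92 to 94 h. Each library was a pool of 100 oocytes or embryos, except for 49 in both GV libraries, 110 in MII replicate 2 and 51 in 8-cell replicate 2. The 6 libraries of GV oocytes, MII oocytes and zygotes form the maternal phase, and the 6 of the later stages form the embryonic phase. A gene is called marked in a library when at least 1 deposited peak overlaps its body, introns included, by at least 1 bp.

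The 12 peak lists held 6914 (zygote replicate 1) to 11959 (GV oocyte replicate 2) peaks; their read depth was unknown and the inputs were not analysed here. A gene without a peak can therefore be unmethylated, weakly expressed or below detection, and in pools of cells fewer cells and less RNA per cell cannot be told apart. Of 12 oocyte marker genes, 5 to 8 were marked in each maternal library and 1 to 4 in later ones, and of 12 blastocyst markers 7 or 8 were marked in 8-cell and blastocyst libraries and 2 to 4 before. Among 13 markers of the 2-cell stage, 8 were marked in both 2-cell libraries, but also 5 and 8 in 8-cell embryos and 4 in both GV libraries. The other libraries had 0 to 3 of them. Of 14 cumulus and granulosa cell markers, 3 or 4 were marked in GV and MII libraries and at most 1 later; the share of such cells in the pools, and its part in the results, was not tested. Exon models were not used here, so positions are given along the gene body and not as exon, intron or UTR.

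m6A peaks were common in these genes, and more so than in protein-coding genes at large, which were not matched for expression. Of the 66 genes, 45 (68.2%) were marked in at least 1 library, against 45.2% of all protein-coding genes, and 11 (16.7%) were marked in all 12, against 3.78%. Among genes marked at least once, the shares marked in all 12 were 24.4% and 8.36%, and the median number of marked libraries was 8 and 5. Both phases held a peak in 38 of the 45, and in 4952 of all 9903 marked protein-coding genes. Hnrnpd and Hnrnph1 had peaks in maternal libraries only, and Hnrnpul1, Hnrnpl, Hnrnpll, Rbm22 and Rbm44 in embryonic libraries only, against 1602 and 3349 of all. Other splicing genes, described below, had similar or higher shares ever marked. These were 87.1% of SR protein kinases and SR-related proteins, 79.2% of core spliceosome genes and 72.1% of other splicing regulators. In all 12 libraries 41.9%, 16.7% and 8.82% of these lists were marked, in the same order. Among the 66 genes the distribution of marked libraries per gene has a group at each end.

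**Figure D1:**
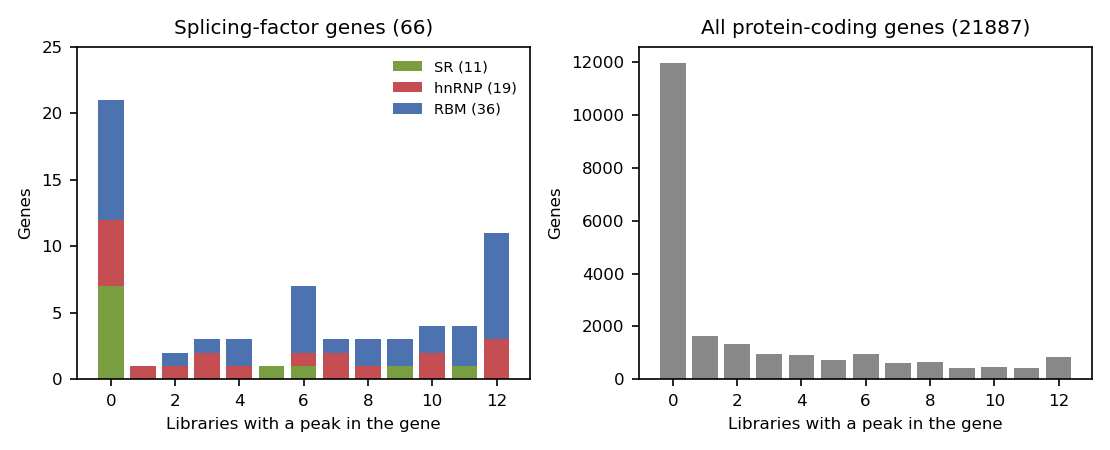
Number of the 12 libraries with a peak in each gene (x axis) against the number of genes (y axis), for the 66 splicing-factor genes stacked by family (left) and all 21887 protein-coding genes (right). Among the splicing-factor genes 21 had no peak in any library and 11 had a peak in all 12, the latter 3 hnRNP and 8 RBM genes.

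The families differed in these counts. Only 4 of 11 SR genes (36.4%) were ever marked and none in all 12 libraries, against 14 of 19 hnRNP genes (73.7%), 3 of them in all 12, and 27 of 36 RBM genes (75.0%), 8 of them in all 12. The marked SR genes were Srsf4 (11 libraries), Srsf11 (9), Srsf10 (6) and Srsf5 (5). The founding members of the family, Srsf1 and Srsf2, were among the 7 without a peak (63.6%, against 31.8% of the members and 54.8% of all protein-coding genes), together with Srsf3, Srsf6, Srsf7, Srsf9 and Srsf12. These counts are descriptions, and the difference between families was not tested.

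Unmarked hnRNP genes were Hnrnpa1, which competes with SR proteins at splice sites, Hnrnpa3, Hnrnpab, Hnrnph3 and Hnrnpa1l2-ps2. The last is annotated as protein-coding but has a pseudogene symbol, a body of 1165 bp and an overlap with Cdh18. Unmarked RBM genes were Rbm3, a cold-inducible protein, Rbm5, Rbm11, Rbm24, Rbm31y (on the Y chromosome), Rbm42, Rbm43, Rbm45 and Rbm46. These names, like those of the unmarked SR genes, were given after their values were seen. The nearest peak lay between 407 bp (Srsf9) and 212646 bp (Rbm31y) from the body of the 21 unmarked genes, with a median of 19296 bp. A peak came within 5000 bp of 3 of them: Srsf6 and Srsf9 in 1 library each, and Hnrnpa1, at 1676 bp, in 4.

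Gene length differed with marking. Marked members had a median body of 20626 bp and unmarked ones of 9234 bp; over all protein-coding genes the medians were 28665 and 10202 bp. Among genes of at most 10000 bp, 9 of 22 members (40.9%) and 25.4% of all protein-coding genes were marked. From there to 30000 bp the shares were 76.9% (20 of 26) and 47.9%, and above it 88.9% (16 of 18) and 63.9%. Members were thus above the background in each length class, while of the SR genes 1 of 6 in the shortest class and 3 of 5 in the next were marked, with none longer.

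In the full lists the phase means of marked members differed by less than the SD over libraries, and in lists of equal length by more. The number of members marked was 28.8 ± 3.76 (SD, n = 6) in the maternal phase and 31.3 ± 3.61 (n = 6) in the embryonic phase, a difference smaller than the spread. The lowest library, zygote replicate 1 with 22, had the shortest list, and the highest was 8-cell replicate 2 with 35. As a share of genes ever marked, members stood at 64.1% ± 8.36 and 69.6% ± 8.05, and all protein-coding genes at 43.3% ± 7.91 and 45.6% ± 5.74. In every one of the 12 libraries the members' share was higher, by 14.1 points (blastocyst replicate 2) to 35.0 points (2-cell replicate 2). When each list was reduced to its 6914 best peaks, the maternal mean became 21.8 ± 1.83 (20 to 24) and the embryonic mean 28.7 ± 3.08 (24 to 32), a gap above either SD, and the ranges met at 24. Over all protein-coding genes the means were then 3284 ± 225 and 3761 ± 553, in the same order.

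**Figure D2:**
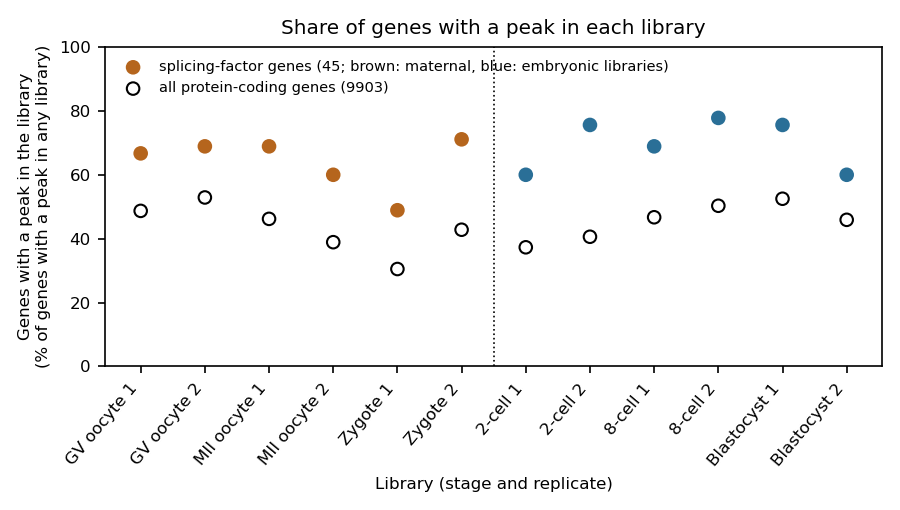
Share of genes with a peak in each library, as a percentage of the genes with a peak in any library, for the 45 marked splicing-factor genes (filled) and the 9903 marked protein-coding genes (open). The splicing-factor genes sit above all genes in each of the 12 libraries, between 48.9% in zygote replicate 1 and 77.8% in 8-cell replicate 2.

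By family, the hnRNP genes marked numbered 6.83 ± 1.33 in maternal and 9.33 ± 1.37 in embryonic libraries (SD, n = 6 each). The ranges, 5 to 9 and 7 to 11, overlapped. RBM genes numbered 19.7 ± 2.50 and 19.2 ± 2.48, and SR genes 2.33 ± 0.816 and 2.83 ± 0.753. The best peak of a marked member ranked, in the median, at a percentile of 68.4 ± 5.03 among the peaks of its library (mean and SD over 12 libraries), against 59.7 ± 2.14 for all marked protein-coding genes. Replicates of a stage agreed on 58.8% (zygote) to 84.8% (GV oocyte) of the members marked in either of them.

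**Figure D3:**
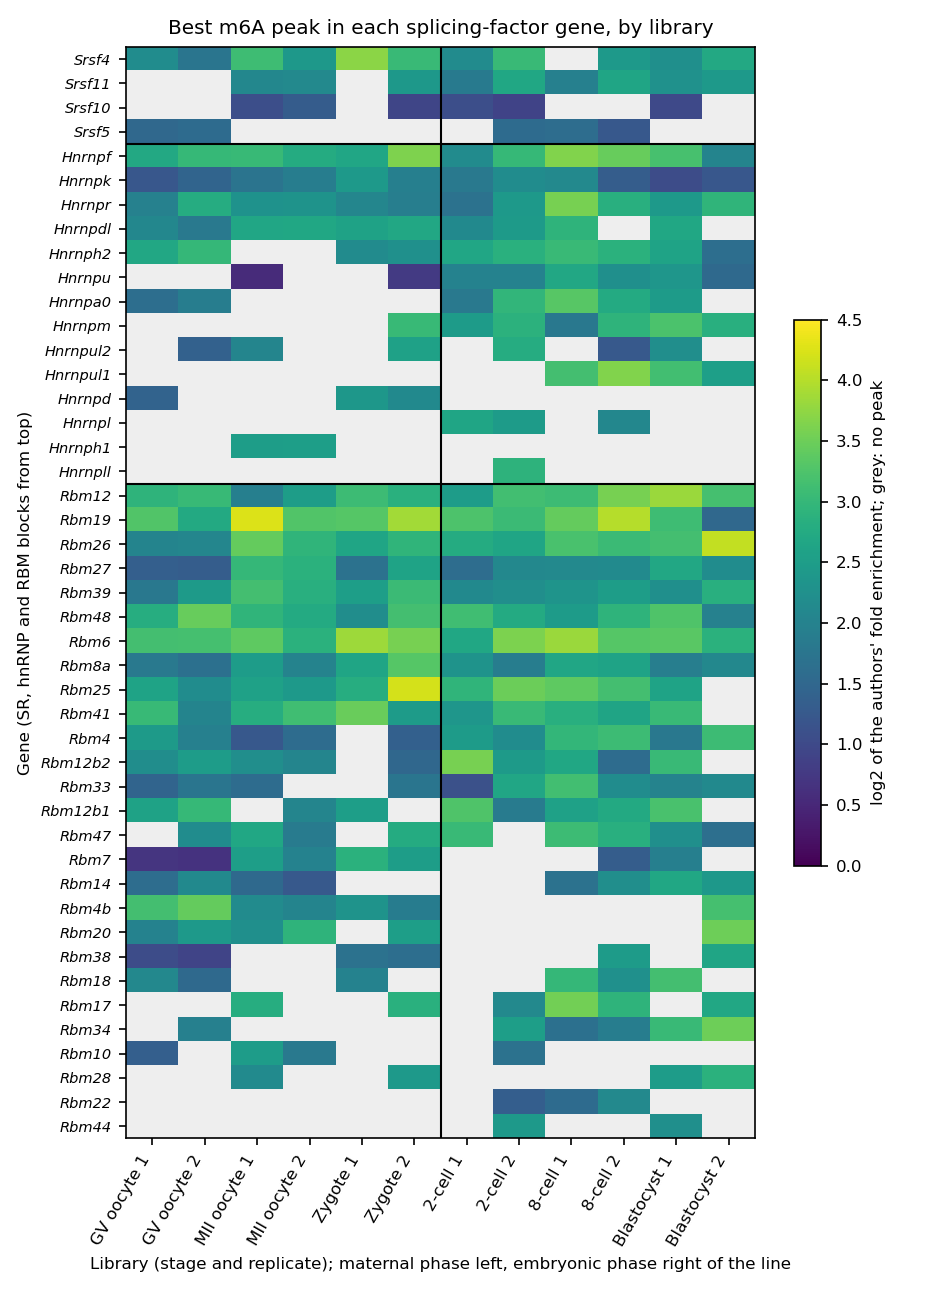
log2 of the authors' fold enrichment of the best peak in each of the 45 marked genes (rows, by family and number of libraries) in each of the 12 libraries (columns, by stage and replicate); grey means no peak. The rows filled across all columns are the 11 constantly marked genes, and the rows of Hnrnpm and Rbm4b fill mostly on opposite sides of the line between the phases.

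The constantly marked genes ran from among the strongest peaks of each list to ranks below the typical marked gene. Rbm6, an alternative splicing regulator related to Rbm5 and Rbm10, was highest, with a best peak at a mean percentile of 95.8 over the 12 libraries. It was followed by Rbm39, a U2AF-related coactivator and splicing factor (93.8), Hnrnpk, a poly(C)-binding KH-domain protein (91.5), and Hnrnpf, which binds G-runs (89.8). Rbm26, a zinc-finger protein tied to nuclear RNA decay, and Rbm19, a nucleolar protein needed for ribosome production, reached 82.0 and 76.9. The other 5 stood lower: Rbm27 at 73.2, Rbm12 at 64.9, Hnrnpr at 56.6, Rbm48, a minor spliceosome protein, at 56.1, and Rbm8a, a core subunit of the exon junction complex, at 43.1. The last 3 were under the 59.7 of all marked protein-coding genes.

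In Rbm6 one region of merged peaks, chr9:107852131-107853715, was covered in all 12 libraries. Its fold enrichment, as given by the authors for each peak, was 8.93 and 9.07 in GV oocytes, 10.4 and 7.34 in MII oocytes, 14.4 and 12.0 in zygotes, 6.38 and 12.2 in 2-cell embryos, 14.1 and 9.94 in 8-cell embryos, and 10.2 and 7.36 in blastocysts. The ranges of the phases overlapped, and no stage stood apart. Rbm6 is read towards lower coordinates, and the region lay 20.4 kb from its 5′ end, 20.5% into a body of 99800 bp.

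Rbm39 and Hnrnpk were also marked far from their 3′ ends. In Rbm39 the constant region, chr2:156172902-156173215, lay 21.8% into the gene with a fold of 3.47 (GV oocyte replicate 1) to 8.90 (MII oocyte replicate 1). In Hnrnpk it was chr13:58399981-58400185, 26.7% into the gene, with 2.06 (blastocyst replicate 1) to 5.39 (zygote replicate 1). Both ends of the Rbm39 range were in maternal libraries, and those of the Hnrnpk range were in different phases. In either gene the values of the phases overlapped. The hairpin of microRNA 7-1 lies inside Hnrnpk as well, and no peak came closer to it than 4891 bp.

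Other constant regions lay further towards the 3′ end. Hnrnpf had one at chr6:117923696-117924306, 93.6% into the gene, with a fold of 3.23 (blastocyst replicate 2) to 12.6 (8-cell replicate 1). In Rbm19 it was chr5:120198102-120198949, 0.446 kb from the 3′ end, with 2.86 (blastocyst replicate 2) to 19.1 (MII oocyte replicate 1). Hnrnpr was marked 82.1% into the gene, and Rbm48 in the middle of its body, at 53.3%. The pair of constant regions of Rbm12 also lies in Cpne1, so all 27 of its peaks could belong to either gene.

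Altogether 132 merged regions lay in the members. Of these, 10 (7.58%) were covered in all 12 libraries, against 3.04% of the 22629 regions in protein-coding genes, and 35 (26.5%) in a single library, against 35.6%. The 10 constant regions lay in 9 of the 11 constantly marked genes. In Rbm26 and Rbm27, which are related and act in the same decay pathway, no single region was covered in all libraries although the gene always was.

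At the level of whole genes, 2 members changed between phases. A gene was tested with Fisher's exact test, two-sided, on its number of marked libraries of 6 against 6 when it was marked in 5 to 7 libraries, adjusted by Benjamini-Hochberg over all 2310 such genes. Of these, 49.6% were called, 28.0% as marked more often in the maternal and 21.6% in the embryonic phase. Among the 11 members tested, 1 was called in each direction, Rbm4b and Hnrnpm, and no other had an unadjusted p under 0.05. Both replicates of a stage share that stage, and a p-value here speaks of the libraries at hand only. Both calls held without any single library, and in 9 of the 12 cases 1 or 2 more members were called, from among Rbm34, Hnrnpu, Hnrnpul1, Rbm20 and Rbm7.

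Hnrnpm, a splicing regulator that binds GU-rich RNA, was marked in 1 maternal and 6 embryonic libraries (Fisher's exact test, p = 0.0152, adjusted p = 0.0306). Its best peak had a fold of 8.17 in zygote replicate 2, 5.55 and 7.43 in 2-cell embryos, 3.50 and 7.63 in 8-cell embryos, and 9.38 and 7.17 in blastocysts, and there was no peak in the other 5 maternal libraries. The one maternal library with a peak was thus as high as the embryonic ones. Its peaks came from 2 main regions: chr17:33677397-33677626, 7.95 kb from the 5′ end, covered in 1 maternal and 5 embryonic libraries, and chr17:33649992-33650362, 3.94 kb from the 3′ end, covered in 0 and 5. The region near the 3′ end passed the test over regions (exact test, p = 0.0152, adjusted p = 0.0307), and the one near the 5′ end did not (p = 0.0801, adjusted p = 0.145, exact test). With 4 oocyte against 8 embryo libraries, Hnrnpm was marked in 0 and 7 but its adjusted p in the exact test was 0.252. With a fold threshold, which keeps peaks no lower than the median fold in each library, it was marked in 1 and 4 (exact test, p = 0.242, adjusted p = 0.4), its region near the 3′ end was then covered in 0 and 1, and it had no peak within 2000 bp of a gene end.

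Rbm4b, a splicing and translation regulator with a near-identical neighbour, Rbm4, was marked in 6 maternal and 1 embryonic libraries (Fisher's exact test, p = 0.0152, adjusted p = 0.0306). Its fold was 8.89 and 10.8 in GV oocytes, 4.53 and 4.07 in MII oocytes, 4.97 and 3.70 in zygotes, and 9.06 in blastocyst replicate 2, with no peak in the other 5 embryonic libraries. GV oocytes were the highest of the maternal stages. The 6 maternal peaks fell in one region, chr19:4761856-4762784, 61.8% into the gene, which no embryonic library covered (exact test, p = 0.00216, adjusted p = 0.0102), and the blastocyst peak fell in another. All 9 peaks also lie in Gm21992, a gene model that overlaps Rbm4, Rbm4b and Rbm14, and when peaks touching several genes were left out Rbm4b had none in any library. With lists of equal length it had a peak in 3 maternal libraries and 1 embryonic one, a total outside the range tested. It also lost its call with a score threshold, the median score of all peaks (2 and 0 libraries), and the fold threshold (2 and 1).

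The neighbour Rbm4 had peaks in 5 maternal libraries and all 6 embryonic ones, and none of its regions was called. All 16 peaks of Rbm4 also lie in Gm21992, so they could belong to either gene. Its region chr19:4787554-4788103, 63.6% into the gene, was covered in 2 maternal and 6 embryonic libraries. Nearer its 5′ end, chr19:4792352-4792935 was covered in 5 and 2 (exact test, p = 0.242, adjusted p = 0.343). The former was not tested, being covered in 8 libraries. Whether reads from such close copies were split between them was not tested.

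Lists of equal length gave another set of calls, without Rbm4b. With the 6914 best peaks of each library, 15 members were tested, 0 were called maternal and 7 embryonic, against 515 and 510 of the 1944 genes tested. The 7 were Hnrnpm, Hnrnpa0, Hnrnpu, a nuclear scaffold protein, Srsf11, Rbm4, Rbm34 and Rbm47. In the full lists Srsf11 was marked in 3 maternal and 6 embryonic libraries, Hnrnpu in 2 and 6, Hnrnpa0 in 2 and 5, Rbm34 in 1 and 5, Rbm47 in 4 and 5, and Rbm4 in 5 and 6. These genes therefore had peaks in some maternal libraries that were not among the best 6914.

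The peaks of Hnrnpu differed in strength as well. Its maternal peaks had a fold of 1.47 in MII oocyte replicate 1 and 1.69 in zygote replicate 2, and its embryonic ones 3.97 and 3.98 in 2-cell embryos, 6.48 and 4.71 in 8-cell embryos, and 5.13 and 2.92 in blastocysts. The phases did not overlap in this value, taken from the best peak of each library, whichever region it lay in. Up to the 2-cell stage the peaks lay in chr1:178337135-178337754, 1.45 kb from the 5′ end. In 8-cell embryos and blastocysts the best peaks lay in chr1:178329263-178329555, 53.3% into the gene, which had no peak before. The region near the 5′ end still had a peak in 8-cell replicate 1, with a fold of 1.93, near the maternal values.

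Regions were tested in the same way, and some differed between phases inside genes that stayed marked. Over all protein-coding genes 3549 regions covered in 5 to 7 libraries were tested, of which 32.2% were called maternal and 17.2% embryonic. Among 26 such regions in members, 5 were called maternal, in Srsf4, Rbm26 (both of its 5′ regions), Rbm4b and Rbm20, and 2 embryonic, in Hnrnpf and Hnrnpm. Srsf4, Rbm26 and Hnrnpf were marked in 11 or 12 libraries as genes, so the difference lay in single regions. Each of them also had another region covered in libraries of both phases. With 4 oocyte against 8 embryo libraries no member and no member region was called by the same test, and neither was any of all 4269 genes or 7658 regions tested. An unadjusted p under 0.05 was found for 1 of 16 members and 244 of all genes, and for 2 of 61 member regions and 569 of all regions.

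**Figure D4:**
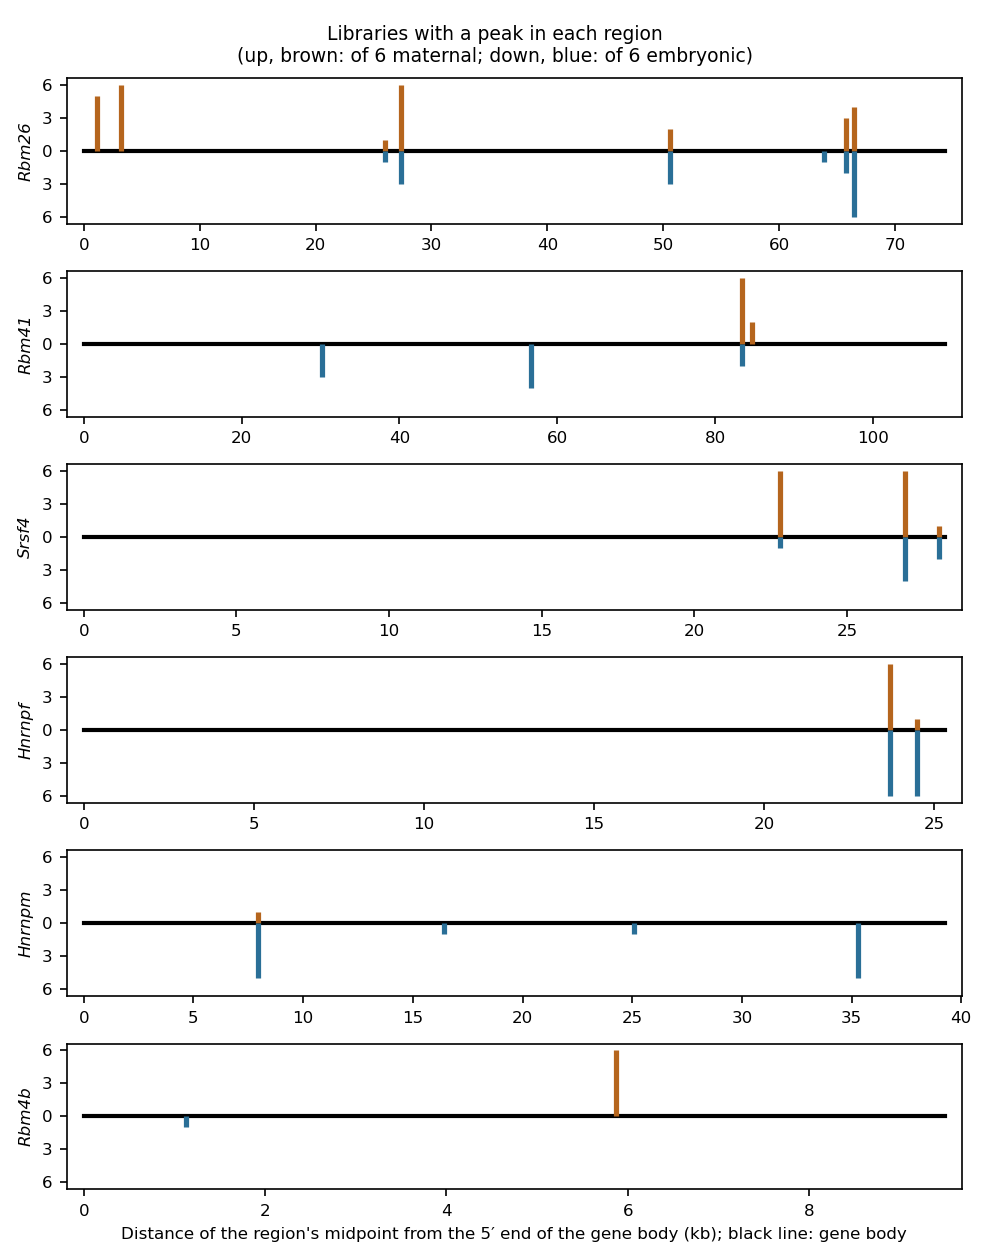
Number of libraries with a peak in each merged region (y axis; maternal upwards in brown, embryonic downwards in blue, up to 6 each) against the distance of the region's midpoint from the 5′ end of the gene body in kb, for 6 genes, each on its own scale. Rbm26 had its maternal-only regions at 1.11 and 3.2 kb, and Hnrnpf its embryonic region at 24.5 kb, next to one covered in all 12 libraries.

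Rbm26 had peaks near its 5′ end in maternal libraries only, and peaks towards its 3′ end in libraries of both phases. The region chr14:105177650-105178034, 3.2 kb from the 5′ end, was covered in 6 maternal and 0 embryonic libraries (Fisher's exact test, p = 0.00216, adjusted p = 0.0102). Its fold was 2.82 and 3.66 in GV oocytes, 8.73 and 5.54 in MII oocytes, and 14.2 and 9.12 in zygotes, lowest in GV oocytes and highest in zygotes. The region chr14:105179738-105180126, 1.11 kb from the 5′ end, was covered in 5 and 0 (exact test, p = 0.0152, adjusted p = 0.0307), with folds of 6.80 in GV oocyte replicate 2, 13.9 and 9.17 in MII oocytes, and 6.45 and 15.1 in zygotes.

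Further along Rbm26 the marks continued. The region chr14:105153456-105153753, 36.9% into the gene, was covered in all 6 maternal libraries, both 2-cell libraries and 8-cell replicate 1. Towards the 3′ end, chr14:105114269-105114777 was covered in 4 maternal and 6 embryonic libraries, with folds of 2.36 to 7.66 in the former and 3.71 to 17.0 in the latter, the highest in blastocyst replicate 2. Neither of these was tested, being covered in 9 and 10 libraries. In lists of equal length the 5′ regions were covered in 4 maternal and 0 embryonic libraries each, too few for the test, and with the score threshold in 3 and 0, and 4 and 0.

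Srsf4, an SR protein, had its maternal region at chr4:131895711-131897024, 81.0% into the gene, covered in 6 maternal libraries and 1 embryonic one (exact test, p = 0.0152, adjusted p = 0.0307). The fold was 5.74 and 4.95 in GV oocytes, 5.08 and 8.43 in MII oocytes, 13.2 and 5.45 in zygotes, and 4.97 in 2-cell replicate 2. Zygote replicate 1 was the highest, and the 2-cell library lay within the range of the others. Close to the 3′ end, chr4:131900117-131900728 was covered in 6 maternal and 4 embryonic libraries. That region, unlike the first, also lies in Gm12992, a long non-coding RNA gene. In lists of equal length the maternal region was covered in 6 and 0 libraries.

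Hnrnpf changed the other way round. Beside its constant region, chr6:117924612-117925041, 0.796 kb from the 3′ end, was covered in 1 maternal and 6 embryonic libraries (exact test, p = 0.0152, adjusted p = 0.0307). The fold was 2.87 in GV oocyte replicate 2, 2.55 and 4.30 in 2-cell embryos, 3.2 and 2.94 in 8-cell embryos, and 3.72 and 4.09 in blastocysts. The GV library lay within the embryonic range. All 7 peaks were lower in fold than the peak of the constant region in the same library, except in blastocyst replicate 2, where it had 4.09 against 3.23.

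Rbm20, a splicing regulator best known for titin in heart muscle, was marked in 5 maternal and 1 embryonic libraries, which did not pass the gene test (exact test, p = 0.0801, adjusted p = 0.143). Within it, chr19:53843193-53843747 was covered in 5 and 0 (exact test, p = 0.0152, adjusted p = 0.0307), with folds of 3.97 and 5.40 in GV oocytes, 3.03 and 7.60 in MII oocytes and 2.86 in zygote replicate 2. The call was lost in lists of equal length and with the score threshold (3 and 0 each) and with the fold threshold (2 and 0). A second region, chr19:53851198-53851415, was covered in 4 maternal libraries only. The single embryonic peak, in blastocyst replicate 2, had the highest fold of the gene, 11.3.

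Rbm41, a minor spliceosome protein, was the only member with regions of opposite preference, defined as at least 4 libraries more in one phase for one region and in the other phase for another. Such genes made up 1.01% of the 5764 protein-coding genes with at least 2 regions, and 38 members had at least 2. The region chrX:139915060-139915417, 76.4% into the gene, was covered in 6 maternal libraries and both 2-cell libraries, with folds of 4.07 (GV oocyte replicate 2) to 11.1 (zygote replicate 1). Midway, chrX:139941698-139942104 was covered in 4 embryonic libraries only, with 5.67 in 2-cell replicate 1, 7.17 and 6.74 in 8-cell embryos and 4.80 in blastocyst replicate 1. The regions shared only 2-cell replicate 1, and neither had a total that could be tested.

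Between consecutive stages, a member was counted as gained when both later and neither earlier library had a peak, and as lost in the opposite case. Comparing 2 libraries with 2 cannot reach a p of 0.05 in an exact test, so these counts carry none. In all 27 such events occurred, spread over the 5 steps. Shares are of the 45 marked members and, for comparison, of the 9903 marked protein-coding genes.

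From GV to MII oocytes 3 members were gained (6.67%, against 3.33% of all) and 5 lost (11.1%, against 8.74%). Hnrnph1, a G-run binding splicing regulator, was gained with folds of 5.70 and 5.72, and Srsf10, a splicing repressor when dephosphorylated, with 2.12 and 2.49. Srsf11 was the third. Among those lost were Rbm38, an RNA-stability factor induced by p53, with 2.06 and 1.89 in GV oocytes, and Rbm18, with 4.29 and 2.91. The others lost were Hnrnpa0, Hnrnph2 and Srsf5.

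From MII oocytes to zygotes 3 members were gained (6.67%, against 0.666%) and 3 lost (6.67%, against 2.53%). All 3 gained ones had a peak in GV oocytes already. Rbm38 had folds of 3.25 and 3.09, in another region than its GV peaks. Hnrnph2 was marked again in its GV region, with 4.51 and 4.78, and Hnrnpd, an AU-rich-element binding decay factor that had a peak in GV oocyte replicate 1, with 5.22 and 4.41. Those lost were Hnrnph1, Rbm14 and Rbm10, an X-linked splicing regulator with 5.60 and 3.51 in MII oocytes. All 11 peaks of Rbm14 also lie in Gm21992, and all 3 of Hnrnpd in 4930524J08Rik. The MII peaks of Rbm10 also lie in Ndufb11. Without peaks that touch several genes, fewer members were lost at this step. Hnrnph1 was thus marked at the MII stage alone.

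From zygotes to 2-cell embryos 2 members were gained (4.44%, against 9.88%) and 4 lost (8.89%, against 7.94%). Hnrnpl, which binds CA repeats, was gained with folds of 6.27 and 5.52, and Hnrnpa0 with 3.52 and 7.78. Rbm7, a subunit of a nuclear exosome targeting complex, was lost after folds of 7.32 and 5.71 in zygotes, as were Rbm38, Hnrnpd and Rbm4b. The Rbm7 folds came from different regions, and no region of it was covered in both zygote libraries. The peak of zygote replicate 1 also touches Gm5617, and all peaks of Hnrnpd and Rbm4b lie in other genes as well. In lists of equal length 7 members were gained at this step. Without zygote replicate 2 there were 9.

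From 2-cell to 8-cell embryos 3 members were gained (6.67%, against 10.9%) and Srsf10 alone was lost (2.22%, against 5.66%). Hnrnpul1, a scaffold-related hnRNP, was gained with folds of 8.92 and 12.6 and kept its marks in blastocysts, with 8.79 and 5.79. Rbm14, a paraspeckle protein, returned with 3.25 and 4.67, and Rbm18 was the third. From 8-cell embryos to blastocysts Rbm28, a nucleolar protein, was gained (2.22%, against 4.79%), with 5.60 and 7.35. Rbm22, part of the catalytic core of the spliceosome, and Srsf5 were lost (4.44%, against 4.29%), after folds of 2.97 and 4.35, and of 3.04 and 2.37. These folds are of the best peak in each library. For Hnrnpul1 and Rbm22 in 8-cell embryos and Rbm28 in blastocysts they came from different regions. Each of these genes also had a region covered in both replicates of that stage.

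Some members differed as much between replicates as between stages. Hnrnpul2 was marked in 1 of 2 replicates at all 6 stages, with folds of 2.39 (8-cell replicate 2) to 6.89 (2-cell replicate 2). Rbm17, a splicing factor of the 3′ splice site, was marked in 1 of 2 at 4 stages. It had 11.7 and 7.59 in 8-cell embryos, where both replicates had a peak, and none in GV oocytes.

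Peaks in these genes were spread more widely along the body than usual. Strand was known for 56 members, with 505 peaks. The median peak lay 67.0% of the way from the 5′ end, against 80.8% over all protein-coding genes. The last 20% of the body held 38.6% of member peaks, against 50.8%, and the stretch from 20 to 40% held 20.2%, against 10%. Per library the last 20% held 26.4% to 50.0% of member peaks (mean 38.9% ± 7.55, SD, n = 12) and 41.2% to 57.9% of all (50.1% ± 6.58), ranges that overlap.

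**Figure D5:**
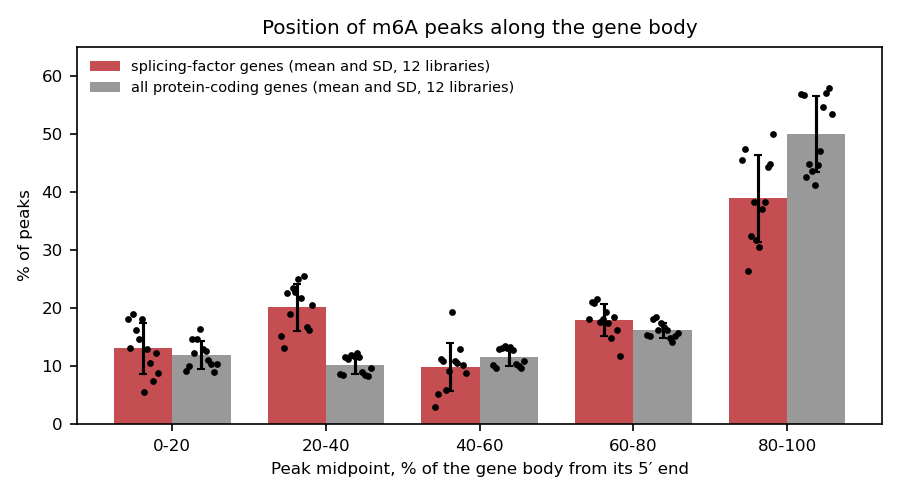
Share of peaks in 5 equal stretches of the gene body from the 5′ end (x axis, % of the body), for splicing-factor genes (red) and all protein-coding genes (grey); bars are means of 12 libraries, whiskers the SD and points the libraries. From 20 to 40% of the body each library's share in splicing-factor genes lies above its share over all genes, and in the last stretch it lies below.

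A few genes carried the stretch from 20 to 40%. Of its 102 peaks, Rbm6 gave 24, Hnrnpk 22, Rbm39 17, Rbm33, a partner of the m6A demethylase Alkbh5, 12, and Rbm26 11, while 7 other genes gave 6 or fewer each. Counted once per region, the stretch still held 21 of 102 member regions (20.6%), from 12 genes, against 11.1% of all regions, and the last 20% held 33.3%, against 46.6%. Within 2000 bp of the 3′ end lay 21.8% of member peaks and 30.3% of all; within 2000 bp of the 5′ end the shares were 10.7% and 9.12%. Evenly spread peaks would give 11.2% at either end in members and 11.5% in all genes.

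Between the phases, the 5′ stretch of the body differed most. The first 20% of the body held 16.6% ± 2.27 of member peaks in maternal and 9.60% ± 2.87 in embryonic libraries (SD, n = 6 each), with ranges of 13.2 to 18.9% and 5.56 to 13% that do not overlap. Over all protein-coding genes the values were 12.9% ± 2.90 and 11.0% ± 1.49, which overlap. The share within 2000 bp of the 3′ end was 21.9% ± 8.75 and 22.6% ± 5.65 in members, and 25.4% ± 5.57 and 33.9% ± 4.81 over all genes. These shares count each peak, so genes with several regions weigh more: of the 40 maternal peaks in the first stretch 11 were in Rbm26, and of the 26 embryonic ones 0. Among members longer than 10000 bp the shares were 11.7% ± 2.91 and 6.68% ± 2.86, with ranges of 6.90 to 14.9% and 3.33 to 9.52% that overlap.

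Peaks over a transcription start site were few. Of 56 members with a start site in the RefSeq promoter table (GRCm38.p6), 4 (7.14%) had a peak over it in at least 1 library, against 601 of 17492 protein-coding genes (3.44%). Their sequences from 30 bases before to 30 bases from the start site onwards, on the strand of the gene, are shown because these are the member peaks whose underlying bases can be given here. Capitals mark GGACT, a common form of the m6A motif.
Rbm17 (chr2:11603170-11603229, minus strand): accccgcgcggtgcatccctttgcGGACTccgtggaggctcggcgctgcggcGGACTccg
Hnrnpd (chr5:99978909-99978968, minus strand): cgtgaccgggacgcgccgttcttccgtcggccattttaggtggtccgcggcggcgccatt
Rbm10 (chrX:20617473-20617532, plus strand): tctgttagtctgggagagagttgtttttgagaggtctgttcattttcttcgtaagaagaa
Rbm7 (chr9:48495301-48495360, minus strand): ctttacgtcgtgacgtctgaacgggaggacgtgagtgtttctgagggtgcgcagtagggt

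Only the Rbm17 stretch held GGACT, on either side of the start, and the copy before it would not be in RNA that begins there. On the strand of the gene the motif was in 26.1% of the 32851 promoter windows of 300 bases in the table (250 before, 50 after the start) and in 19 of 72 member windows (26.4%); on either strand, in 45.5% and in 29 windows. The Rbm10 window of 300 bases held 1 copy on the strand of the gene, and that of Rbm17 held 3. The Rbm17 start was covered in MII oocyte replicate 1, zygote replicate 2 and 2-cell replicate 2, with folds of 2.95, 3.32 and 5.27. That of Hnrnpd was covered in GV oocyte replicate 1 and both zygotes, with 2.70, 5.22 and 4.41, and that of Rbm10 in GV oocyte replicate 1 and both MII oocytes, with 2.56, 5.60 and 3.51. Rbm7 had a start-site peak in zygote replicate 1, with 7.32. The peaks at Hnrnpd, Rbm10 and Rbm7 also touch a neighbouring gene, 4930524J08Rik, Ndufb11 and Gm5617, and those at Rbm17 do not.

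Other genes of the splicing machinery were read from 3 lists. Of 31 SR protein kinases and SR-related proteins, 27 were marked at least once and 13 in all 12 libraries, with a median of 10 libraries, against 6 for the 66 genes and 0 for all protein-coding genes. They were also longer, with a median body of 34215 bp, against 13962 bp for the 66 genes, 7290 bp for the SR genes among them and 17169 bp for all protein-coding genes. Among the kinases, Cdk12, Cdk13, Dyrk1a and Prpf4b were marked in all 12, Srpk1 in 11, Srpk2 in 9, Clk2 in 3, Clk3 in 2, Clk1 in 1, and Clk4 and Srpk3 in 0. The SR genes themselves had a median of 0. These names were given after their values were seen.

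Core snRNP and spliceosome genes were marked at least once in 57 of 72 cases and in all 12 libraries in 12, with a median of 4 libraries. Other splicing regulators with RNA-binding domains were marked in 49 of 68 and in all 12 libraries in 6, with a median of 2. The gene test called 1 of 1 tested SR-related genes, 4 of 12 core genes and 1 of 5 other regulators, all embryonic, where 21.6% of all genes tested were called embryonic and 49.6% in either direction. Ppil1, a spliceosomal prolyl isomerase, and Syncrip, known as hnRNP Q, were marked in 0 maternal and 6 embryonic libraries (Fisher's exact test, adjusted p = 0.00963). Luc7l, a U1 snRNP factor, Cdc5l, of the Prp19 complex, Prpf4, of the U4/U6 snRNP, and Zrsr1, related to U2af1, were marked in 0 and 5 (same exact test, adjusted p = 0.0306). No gene of these lists was called maternal, where 28.0% of all genes tested were. All 6 calls were lost with 4 oocyte against 8 embryo libraries. With the score threshold Cdc5l (0 and 4 libraries), Luc7l and Prpf4 (0 and 3) and Zrsr1 (0 and 2) lost theirs, and with the fold threshold Cdc5l (0 and 1), Syncrip (0 and 2), Prpf4 and Zrsr1 (0 and 4). Near gene ends Luc7l, Prpf4, Syncrip and Zrsr1 were not called. In lists of equal length Prpf4 and Zrsr1 fell to 0 and 4, and without peaks that touch several genes Zrsr1 had none.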

How the data were processed

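Of 24 samples, the 12 immunoprecipitated ones have a deposited peak list each and were used. The submitters' processing notes name the mm10 build, MACS2 2.1.2, HISAT2 2.1.0, cutadapt 1.8.1, bedtools 2.28.0, SAMtools 1.9, FastQC 0.11.8 and deepTools 3.2.0, without settings. Per the file headers (peak names), each library was called against its own input. The deposited lists give the authors' score, fold enrichment (a ratio), −log10 p-value and −log10 q-value, whose lowest value, 1.30, is their threshold. These served only to describe, rank or filter peaks. The 143579 summits were collapsed by interval to 113764 peaks of 200 to 3754 bp. Read depth is unknown, and the number of peaks in a list can move with it.

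Genes, promoters and microRNAs came from RefSeq tables of GRCm38.p6, which share the coordinates of mm10; strand was taken from the promoter table. All 66 symbols were matched. Peaks of the 12 lists overlapping by at least 1 bp were merged to regions. Marks were tested with Fisher's exact test (SciPy 1.17.1, pandas 2.3.3, Python 3.11.15) where 5 to 7 libraries were marked, the totals that can reach p 0.05; the smallest p is 0.00216. The procedure was tested on simulated marks. No counting error can be given for peaks.

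Members, lists and tests were chosen with earlier results of these data known. Members were named where the gene test called them, where they were marked in all 12 libraries with the highest percentile (6), for up to 2 gained and 2 lost per step, for opposite regions or discordant replicates, and for up to 4 called genes per list. Srsf4, Rbm20, Rbm4, Hnrnpu and the other members were named after their values were seen. Each replicate was a separate pool. The labels do not say whether equal replicate numbers of different stages belong together, and the samples were not treated as paired.

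Alternatives were lists of equal length (the best by q-value), stricter score or fold thresholds, the peak midpoint in place of overlap, peaks near gene ends, another grouping of stages, a replicate block, a larger overlap for merging, a shorter window and each library left out. Leaving out peaks that touch several genes was added after seeing the data.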

Additional observations from a re-analysis of the deposited data

How the results depend on the processing

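With lists of equal length, 7 members were called in one phase, 0 maternal and 7 embryonic, the maternal mean of marked members was 21.8, and 7 were marked in all 12 libraries; gains were 7 from zygote to 2-cell, 5 from 2-cell to 8-cell and 0 from 8-cell to blastocyst, and 2 maternal and 6 embryonic regions were called. With the better-scoring part of the peaks (at least the median score over all lists), 4 members were called (2 maternal, Rbm48 and Rbm41, and 2 embryonic, Srsf11 and Hnrnpm, against 712 and 190 of 1700 genes), without Rbm4b, the phase means were 20.2 and 18.8, 4 members were marked in all 12 libraries and 25 in both phases, 1 was gained from MII to zygote, 5 gained and 2 lost from zygote to 2-cell and 3 lost from 2-cell to 8-cell, 3 maternal regions were called, and 25.1% of member peaks lay 20 to 40% into the body. With folds at or above the median of each list, 1 member was called, Srsf4, as maternal (0 embryonic; 344 and 225 of 1614 genes), and neither Rbm4b nor Hnrnpm, the means were 15.7 and 16.5, 1 member was marked in all 12, 3 were lost from GV to MII, 0 gained from MII to zygote, and 2 regions were called (2 maternal, 0 embryonic). With peaks within 2000 bp of a gene end, 1 member was called, Rbm26, as maternal (0 embryonic; 289 and 321 of 1330 genes), the means were 14.2 and 13, 29 members were ever marked, 18 in both phases and 3 in all 12, 1 was gained from GV to MII, 1 lost from MII to zygote, 1 gained from zygote to 2-cell and 0 lost from 2-cell to 8-cell, 2 regions were called (1 and 1), and Rbm4b reversed, with 0 maternal and 1 embryonic library (a difference of -16.7 points). Fewer peaks enter each of these. Without peaks touching several genes (added after seeing the data), 1 member was called, Hnrnpm, and 0 maternal, the maternal mean was 24, and 1 was lost from MII to zygote and 1 from zygote to 2-cell. With 4 oocyte against 8 embryo libraries, members and regions called were 0 in either direction, as were all genes and regions; the cause was not tested. A 1000 bp window held 13.9% of member peaks.

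Leaving out 1 library gave 2 to 4 members called (1 to 2 maternal, 1 to 3 embryonic) and 7 to 11 regions (2 to 5 embryonic). Rbm34 was added without GV oocyte replicate 2 or 2-cell replicate 1, Hnrnpu without MII oocyte replicate 1 or zygote replicate 2, Rbm20 without zygote replicate 1 or blastocyst replicate 2, Hnrnpul1 without either 2-cell library, and Rbm7 without 8-cell replicate 2 or blastocyst replicate 1. A stage with 1 library meets the rule for steps more easily: the 27 events became 28 to 42, highest without zygote replicate 2. By step, gains ranged over 3 to 6 (GV to MII), 2 to 9 (zygote to 2-cell), 3 to 7 (2-cell to 8-cell) and 1 to 3 (8-cell to blastocyst), and losses over 3 to 9 (MII to zygote), 1 to 4 (2-cell to 8-cell) and 2 to 8 (8-cell to blastocyst).

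The replicate block gave the same 2 member calls (adjusted p = 0.0403 for both, in the exact test) and the same 7 region calls. Correlations of same-numbered replicates between stages ran from -0.165 to 0.0249 over 15 pairs, so no pairing by number was seen in these values. They cannot decide whether equal numbers shared a day or a group of mice, which the labels do not say. Depth could not be assessed, so an absent peak is not evidence of absent m6A.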
